A study of Mus musculus with 12 samples.

Results

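Inflammasome and NOD-like receptor genes were followed in RAW264.7 cells, an established mouse macrophage line, under a control siRNA or an siRNA against the long noncoding RNA lincRNA-Tnfaip3, each with or without LPS. The 10 genes were the sensors Nlrp3, Nlrp10, Nlrc4, Nod1, Nod2 and Nlrc5, the adaptor Pycard, the caspases Casp1 and Casp4, and the pore-forming Gsdmd. Members were all non-control probes annotated with one of these gene names, which gave 13 probes on 22 spots among 55681 probes on 59305 spots per array. Nlrp3, Casp4 and Nlrc5 had 2 probes each and the other genes 1, and the Gsdmd probe was spotted 10 times. All 13 probes were well above background on all 12 arrays, so each of the 10 genes had a measured signal in every sample. They were 10 of 23903 features tested (named genes, clones and unnamed probes that passed the filter on dim probes).

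NOD-like receptors are cytosolic proteins that detect microbial products or signs of cell damage. NLRP3 and NLRC4 nucleate inflammasomes, in which caspase-1 becomes active. NLRP3 gathers caspase-1 through the adaptor ASC, the product of Pycard. The active caspase matures IL-1β and IL-18 and cleaves gasdermin D, whose fragment forms pores and causes pyroptosis. Caspase-11, the product of mouse Casp4, binds LPS in the cytosol and cleaves gasdermin D without caspase-1. NOD1 and NOD2 bind fragments of bacterial peptidoglycan and signal through the kinase RIPK2 to NF-kB. In macrophages LPS acts through TLR4, and the resulting rise of Nlrp3 and Il1b transcripts is called priming.

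The 4 groups of 3 samples were, per the labels, a non-specific control siRNA, the control siRNA with LPS, the lincRNA-Tnfaip3 siRNA, and that siRNA with LPS. The siRNA was applied for 24 h, after which all cells were kept for a further 4 h, with E. coli LPS at 1 µg/ml in the LPS groups only. Whether replicates were separate cultures is not stated, so the p-values reflect the variation among the arrays at hand, part of which may be technical. The line is a single transformed macrophage line, and each value is an average over all its cells, in which fewer responding cells and less RNA per cell cannot be told apart. The number of probes named for the siRNA's target was 0, a count that rests on names only. Loss of lincRNA-Tnfaip3 was therefore not assessed here, and the group names say which siRNA was given.

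Of 8 macrophage markers 7 (Cd68, Csf1r, Adgre1, Itgam, Lyz2, Spi1 and Fcgr1) were well above background on all 12 arrays, and Mertk was on 1. Of 18 measured markers of other cell types, 6 (Cd3e, Cd79a, Pecam1, Kdr, Mpo and S100a8) were above background on all 12 arrays and 4 (Ms4a1, Pdgfra, Epcam and Alb) on 0. The summed level of those 18 markers, on the log2 scale below, was 3.38 to 3.75 in control-siRNA cells, 3.82 to 4.30 with LPS, 3.68 to 4.26 in lincRNA-siRNA cells and 4.07 to 4.33 with LPS. This sum was higher with LPS than without it in control-siRNA cells, and its part in the results was not tested. Kdr, the brightest of the 18, had means of 3.22 and 3.64 there, close to the sum, which was thus set largely by Kdr. Means of Cd3d, Ms4a1, Pdgfra, Epcam, Mpo and Alb were lower with LPS there, and those of the other measured markers higher. The sum of the 8 macrophage markers was 8.09 to 8.47 in control-siRNA cells and 8.23 to 8.34 with LPS. Processed signals had a 75th percentile between 312 and 478. Arrays 1 and 2 of the control siRNA lay on slide 1 and had 27196 and 29450 probes well above background, against 32701 to 36389 on the other arrays. Slide 2 held control-siRNA array 3, all 3 arrays of each middle group (control siRNA with LPS, lincRNA siRNA) and the first array of the last group, whose other 2 arrays lay on slide 3. A slide-blocked estimate below therefore rests on the 8 arrays of slide 2. Its adjusted p also draws on the spread between the arrays of slides 1 and 3, as all 12 arrays enter that fit.

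Sequences are shown for the genes on which the comparisons turn. The first set is the 250 bases before the transcription start of the 3 members that rose with LPS under both siRNAs, from RefSeq on GRCm38.p6, 5′ to 3′ on the plus strand, with matches to the NF-kB (kB) consensus in capitals. The Nlrp3 window is chr11:59541319-59541568, the Casp4 window chr9:5308599-5308848 and the Nod2 window chr8:88647097-88647346.
Nlrp3: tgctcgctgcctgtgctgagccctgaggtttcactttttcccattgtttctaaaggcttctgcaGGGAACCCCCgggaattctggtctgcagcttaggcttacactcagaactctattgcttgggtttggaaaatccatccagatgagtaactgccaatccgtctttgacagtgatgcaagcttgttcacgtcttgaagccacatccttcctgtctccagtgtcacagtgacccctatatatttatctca
Casp4: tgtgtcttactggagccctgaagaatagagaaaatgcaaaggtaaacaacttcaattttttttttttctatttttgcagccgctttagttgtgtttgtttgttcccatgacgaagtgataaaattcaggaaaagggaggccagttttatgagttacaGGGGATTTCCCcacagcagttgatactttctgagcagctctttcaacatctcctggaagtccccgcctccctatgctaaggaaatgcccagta
Nod2: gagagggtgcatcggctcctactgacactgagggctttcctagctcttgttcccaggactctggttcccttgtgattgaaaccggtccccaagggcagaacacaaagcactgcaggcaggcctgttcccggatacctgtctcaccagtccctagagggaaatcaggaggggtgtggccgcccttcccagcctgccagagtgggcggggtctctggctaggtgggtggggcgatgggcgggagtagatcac

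The RefSeq table held windows for 7 of the 10 members (10 windows, each from 250 bases before to 50 after a start) and none was matched for Nlrp10, Gsdmd and Nlrc5. Both strands were searched for the kB consensus, the core of the interferon-stimulated response element (GAAA, any 2 bases, GAAA), the STAT motif TTCNNNGAA and the AP-1 motif TGANTCA. The Nlrp3 window held GGGAACCCCC at bases 65 to 74, a kB match on the minus strand, and the window of the second Nlrp3 start, 1117 bases downstream, held no match. In both Casp4 windows, whose starts lie 11 bases apart, GGGGATTTCC and the overlapping GGGATTTCCC matched the kB consensus, at bases 158 to 167 and 159 to 168 of the one shown. Nod1 held 1 STAT match, TTCCAGGAA, and Nod2, Nlrc4, Pycard and Casp1 held no match to any of the 4 motifs. Among all 32851 windows of this length the kB consensus was found in 4.51%, the interferon core in 3.44%, the STAT motif in 8.3% and the AP-1 motif in 7.81%. These matches describe the letters only.

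The second set is a pair of 60-base probes, shown because they define what was measured for Pycard and for the second reading of Nlrc5. The Pycard probe lies on the minus strand at 135136241 to 135136300 of chromosome 7 on mm9, the build of the array files. The Nlrc5 probe lies on the plus strand between 97030478 and 97030624 of chromosome 8, a span that exceeds its length by 87 bases, so that it bridges a gap in the genome. The other Nlrc5 probe lies further downstream, at 97051105 to 97051164.
Pycard: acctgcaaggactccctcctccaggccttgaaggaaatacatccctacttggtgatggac
Nlrc5: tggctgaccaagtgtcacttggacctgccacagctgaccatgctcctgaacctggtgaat

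The first comparison asked how the 10 genes responded to LPS. In control-siRNA cells Nlrp3, Nod2, Nlrc5 and Casp4 rose, Nlrp10 fell, and Nlrc4, Nod1, Pycard, Casp1 and Gsdmd did not pass. In lincRNA-siRNA cells Nlrp3, Nod2 and Casp4 rose and the other 7 did not pass. Averaged over both siRNAs, Nlrc5 and Gsdmd also rose, and Nlrp10 and Nlrc4 fell. A change passed when its Benjamini-Hochberg adjusted p in limma, over all features of the contrast, was under 0.05. The share of all features that passed was 5.14% in control-siRNA cells (3.26% higher and 1.88% lower with LPS), against 5 of the 10 members (4 higher, 1 lower). It was 1.84% in lincRNA-siRNA cells (1.5% higher, 0.339% lower) against 3 members, all higher, and 8.21% on average (4.2% higher, 4% lower) against 7 members, 5 of them higher. The median log2 change of the members was 0.37 in control-siRNA cells and 0.31 in lincRNA-siRNA cells, against 0.058 and -0.0092 over all features. All values below are log2 of the processed signal minus the 75th percentile of the same array, so that 0 is that percentile and 1 unit is a doubling on the linear scale.

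**Figure D1:**
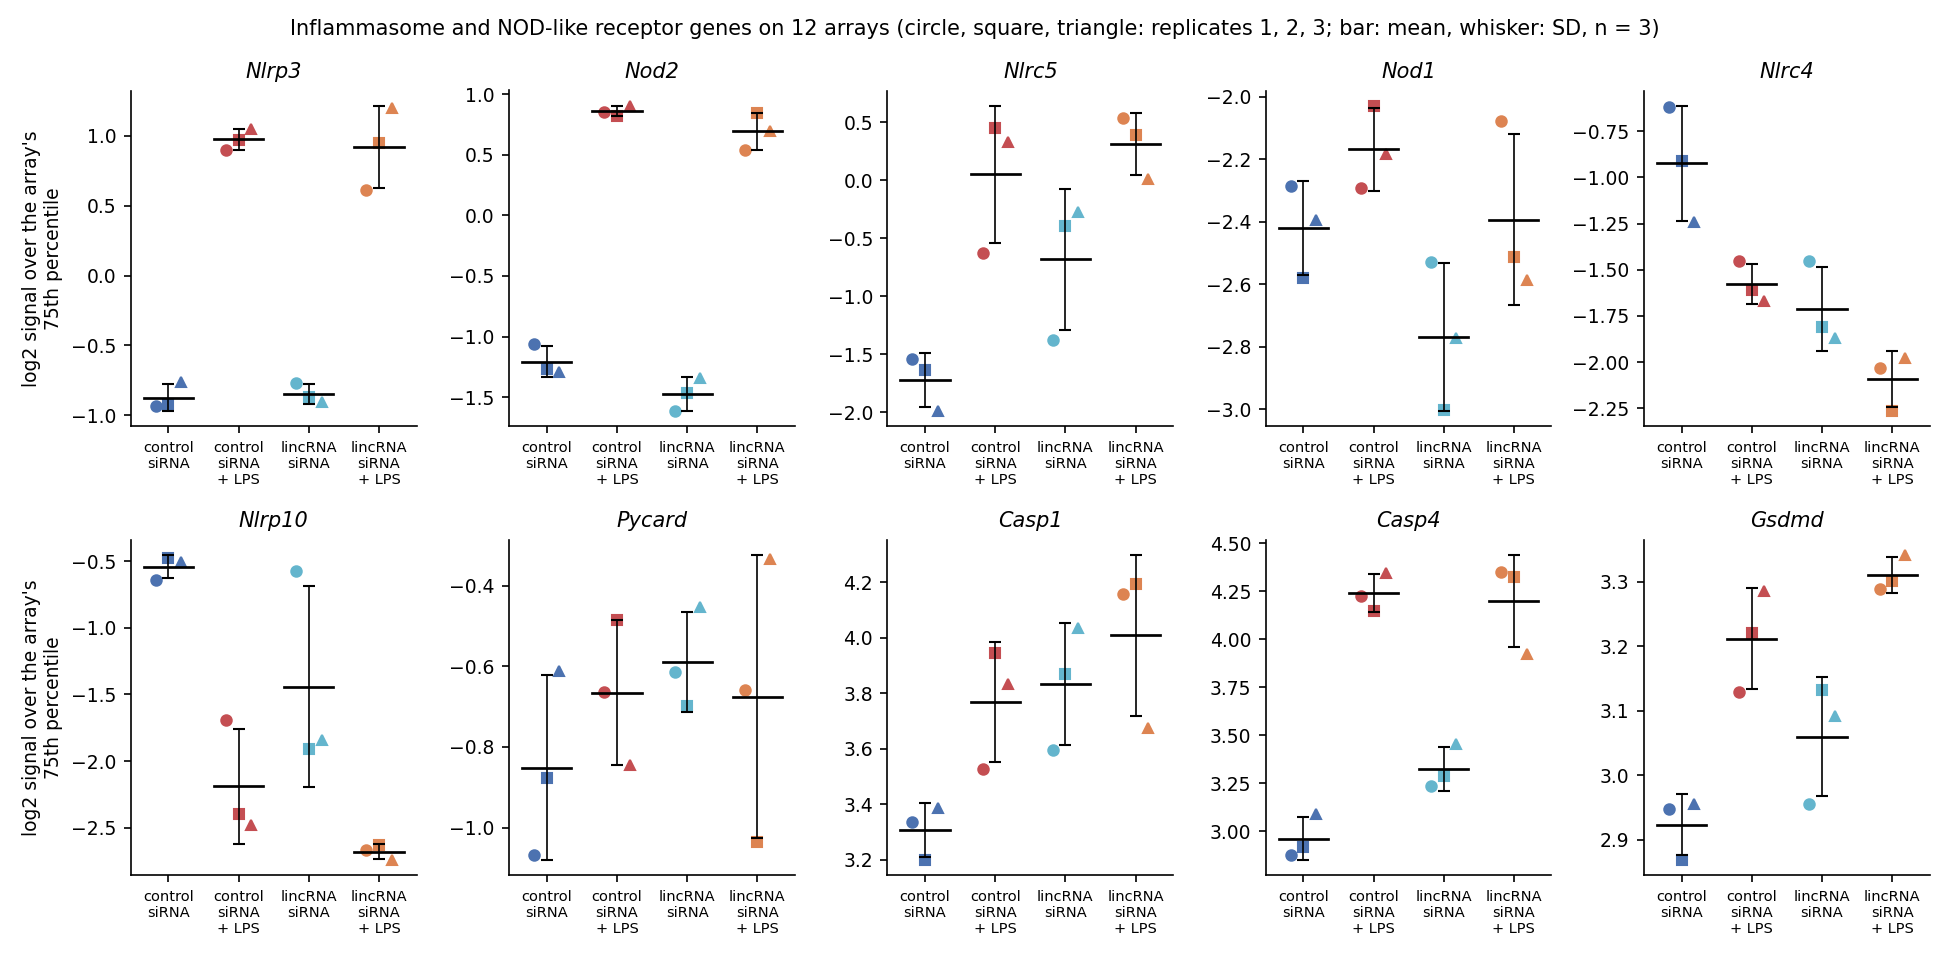
Log2 signal of the 10 genes relative to the 75th percentile of each array (y axis), by group (x axis), with the 3 arrays of a group as a circle, square and triangle for replicates 1, 2 and 3, the group mean as a bar and the SD as whiskers; each panel has its own y range. Nlrp3 lies between -0.93 and -0.76 without LPS and between 0.62 and 1.20 with LPS, whereas the Pycard arrays of all groups overlap.

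Nlrp3, the sensor whose induction defines priming, read -0.93, -0.92 and -0.76 on the control-siRNA arrays and 0.90, 0.97 and 1.05 with LPS. On the lincRNA-siRNA arrays it read -0.77, -0.87 and -0.91, and 0.62, 0.95 and 1.20 with LPS. All 6 LPS arrays lay above all 6 arrays without LPS. The log2 change was 1.85 ± 0.14 (SE, n = 3 per group, adjusted p = 9.54e-05), or 3.60-fold (95% CI 2.90 to 4.48), in control-siRNA cells. Under the lincRNA siRNA it was 1.77 ± 0.14 (adjusted p = 0.000166), or 3.41-fold (95% CI 2.74 to 4.24). The probe used lies at 59379981 to 59380040 of chromosome 11 (mm9), and the other Nlrp3 probe gave 1.69 and 1.41. With the slide as a block the changes were 1.74 (adjusted p = 0.00317) and 1.46 (adjusted p = 0.00705).

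Nod2, the receptor for muramyl dipeptide, read -1.06, -1.27 and -1.29 with the control siRNA and 0.85, 0.82 and 0.90 after LPS. With the lincRNA siRNA it read -1.61, -1.47 and -1.34, and 0.54, 0.84 and 0.69 after LPS. The groups with and without LPS did not overlap under either siRNA, and the 3 LPS arrays of the control siRNA lay within a narrow band. The rise was 2.07 ± 0.12 (adjusted p = 1.55e-05), 4.19-fold (95% CI 3.50 to 5.01), in control-siRNA cells. In lincRNA-siRNA cells the Nod2 rise was 2.17 ± 0.12 (adjusted p = 1.84e-05), 4.49-fold (95% CI 3.75 to 5.36). Slide-blocked values were 2.15 (adjusted p = 0.00268) and 2.01 (adjusted p = 0.00333), and Nod2 and Nlrp3 passed under each of the 22 alternatives run for either siRNA.

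Nod1, which binds peptidoglycan fragments that contain diaminopimelic acid, stood apart from Nod2. Its arrays read -2.29, -2.58 and -2.40 with the control siRNA, -2.29, -2.03 and -2.18 with LPS added, -2.53, -3.00 and -2.77 with the lincRNA siRNA, and -2.08, -2.51 and -2.59 with LPS added. The groups with and without LPS overlapped under both siRNAs. Its LPS change was 0.25 (95% CI -0.13 to 0.63, adjusted p = 0.376) in control-siRNA cells and 0.37 (95% CI -0.0030 to 0.75, adjusted p = 0.497) in lincRNA-siRNA cells. Both intervals end below the Nod2 intervals, which begin at 1.81 and 1.91.

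Nlrc5, a NOD-like receptor that acts in the nucleus as a transactivator of MHC class I genes, read -1.54, -1.64 and -1.99 in control-siRNA cells and -0.63, 0.45 and 0.33 after LPS. In lincRNA-siRNA cells it read -1.38, -0.40 and -0.27, and 0.54, 0.39 and 0.02 after LPS. Within each siRNA the LPS arrays lay above the others, but 1 array of the control siRNA with LPS and 1 of the lincRNA siRNA stayed about 1 unit below their replicates. The LPS change was 1.77 ± 0.35 (adjusted p = 0.0184), 3.42-fold (95% CI 2.00 to 5.86), in control-siRNA cells. Under the lincRNA siRNA it was 1.00 ± 0.35 (adjusted p = 0.303), and on average 1.39 ± 0.25 (adjusted p = 0.00746). The probe shown above gave 0.93 ± 0.18 (adjusted p = 0.0200) and 0.62 ± 0.18 (adjusted p = 0.212). With the slide as a block the control-siRNA change was 2.04 (adjusted p = 0.202) and the average 1.63 (adjusted p = 0.0842), and neither passed. The control-siRNA call was also lost without array 1 or 2 of the control siRNA or array 2 or 3 of the control siRNA with LPS (1.57 to 1.87, adjusted p 0.0513 to 0.0883).

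Nlrp10, a family member without leucine-rich repeats, was the member that fell in control-siRNA cells. Its arrays read -0.64, -0.48 and -0.50 in control-siRNA cells and -1.69, -2.40 and -2.48 after LPS. In lincRNA-siRNA cells they read -0.57, -1.91 and -1.84, and -2.67, -2.63 and -2.74 after LPS. The 3 control-siRNA arrays and array 1 of the lincRNA siRNA were high, and all 3 arrays of the lincRNA siRNA with LPS were at the low end. The change was -1.65 ± 0.33 (adjusted p = 0.0206), a ratio of 0.319 (95% CI 0.191 to 0.532), in control-siRNA cells. Under the lincRNA siRNA it was -1.24 ± 0.33 (adjusted p = 0.131), and on average -1.44 ± 0.23 (adjusted p = 0.00437). The slide-blocked values were -1.69 (adjusted p = 0.337) and, on average, -1.46 (adjusted p = 0.123). The control-siRNA call was lost without array 1 or 2 of the control siRNA or array 2 or 3 of the control siRNA with LPS (-1.70 to -1.50, adjusted p 0.0646 to 0.0962).

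Nlrc4, which assembles an inflammasome when NAIP proteins detect bacterial flagellin or secretion-system proteins, read -0.62, -0.91 and -1.24 in control-siRNA cells and -1.45, -1.61 and -1.67 after LPS. In lincRNA-siRNA cells it read -1.45, -1.81 and -1.87, and -2.03, -2.26 and -1.98 after LPS. The 4 groups formed a descending series in this order of listing, with overlap between the control siRNA with LPS and the lincRNA siRNA without it. Its LPS change was -0.65 (95% CI -1.04 to -0.26, adjusted p = 0.0634) in control-siRNA cells and -0.38 (95% CI -0.77 to 0.0076, adjusted p = 0.503) in lincRNA-siRNA cells. The average of -0.52 ± 0.12 passed (adjusted p = 0.0309), a ratio of 0.699. With the slide as a block it was -0.33 (adjusted p = 0.503), and it did not pass without any 1 of 9 of the 12 arrays (adjusted p 0.0504 to 0.0830): all but control-siRNA array 3, array 1 of the control siRNA with LPS and array 3 of the lincRNA siRNA.

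Among the adaptor, caspases and pore, Casp4 was the gene that rose under both siRNAs. Casp4 arrays read 2.88, 2.92 and 3.09 in control-siRNA cells and 4.23, 4.15 and 4.35 after LPS. In lincRNA-siRNA cells they read 3.23, 3.29 and 3.45, and 4.35, 4.33 and 3.93 after LPS. Every LPS array was above every array without LPS. The rise was 1.28 ± 0.13 (adjusted p = 0.000497), 2.43-fold (95% CI 1.98 to 2.99), in control-siRNA cells and 0.88 ± 0.13 (adjusted p = 0.0081), 1.84-fold (95% CI 1.49 to 2.26), in lincRNA-siRNA cells. The difference between these rises was -0.40 (95% CI -0.83 to 0.017, adjusted p = 0.89) and did not pass. The other Casp4 probe shares 55 bases with this one, so it is no independent reading, and gave 1.38 and 0.82. The slide-blocked rise was 1.15 (adjusted p = 0.0343) in control-siRNA cells, 1.03 (adjusted p = 0.0646) in lincRNA-siRNA cells and 1.09 (adjusted p = 0.00519) on average. The control-siRNA call did not pass within slide 2 alone (adjusted p = 0.0788), nor the lincRNA-siRNA call there (adjusted p = 0.122).

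Casp1, the protease of the canonical inflammasome, read 3.34, 3.20 and 3.39 in control-siRNA cells and 3.53, 3.95 and 3.83 after LPS. In lincRNA-siRNA cells it read 3.60, 3.87 and 4.03, and 4.16, 4.19 and 3.68 after LPS. The control-siRNA arrays were the lowest, and the remaining groups overlapped. Its LPS change was 0.46 (95% CI 0.068 to 0.85, adjusted p = 0.156) in control-siRNA cells and 0.18 (95% CI -0.22 to 0.57, adjusted p = 0.837) in lincRNA-siRNA cells, both estimates below those of Casp4.

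Pycard, which encodes ASC, read -1.07, -0.88 and -0.61, then -0.66, -0.49 and -0.85 with LPS, in control-siRNA cells. After the lincRNA siRNA it read -0.61, -0.70 and -0.45, then -0.66, -1.03 and -0.33 with LPS. All groups overlapped. RAW264.7 cells are known as a line without ASC protein. The probe shown above was nevertheless well above background on 12 of 12 arrays, which concerns RNA binding to that probe and not protein. The Pycard LPS change was 0.19 (95% CI -0.24 to 0.61, adjusted p = 0.567) and -0.087 (95% CI -0.51 to 0.34, adjusted p = 0.952) under the control and the lincRNA siRNA.

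Gsdmd, the gene of the pore-forming gasdermin D, was read with the most spots and changed by the smallest amount among the members that passed on average. Its arrays read 2.95, 2.87 and 2.96 in control-siRNA cells and 3.13, 3.22 and 3.29 after LPS. In lincRNA-siRNA cells they read 2.96, 3.13 and 3.09, and 3.29, 3.30 and 3.34 after LPS. Each LPS array exceeded all arrays of the same siRNA without LPS. The change was 0.29 (95% CI 0.093 to 0.48, adjusted p = 0.0938) and 0.25 (95% CI 0.056 to 0.45, adjusted p = 0.303) under the control and the lincRNA siRNA. On average it was 0.27 ± 0.062 (adjusted p = 0.0263), or 1.21-fold. The SD of single spots within an array, over 9 or 10 usable spots, was 0.033 to 0.064. The residual SD between arrays of a group was 0.067. It is taken over array values that are each a mean of those spots, so these SDs are not directly comparable. With the slide as a block the average was 0.24 (adjusted p = 0.331), and it did not pass without any 1 of 7 of the 12 arrays (adjusted p 0.0548 to 0.0770): control-siRNA arrays 1 and 2, arrays 2 and 3 of the control siRNA with LPS, array 1 of the lincRNA siRNA, and both slide-3 arrays.

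The arrays of the compared groups did not overlap for 8 of the 10 members with LPS in control-siRNA cells, all but Nod1 and Pycard, against 30.2% of all features. In lincRNA-siRNA cells this held for 7 members, all but Nod1, Pycard and Casp1, against 15.5% of all features. Averaged over both siRNAs, the sensors ranged from -1.44 (Nlrp10) to 2.12 (Nod2), and the adaptor, caspases and pore from 0.050 (Pycard) to 1.08 (Casp4).

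**Figure D2:**
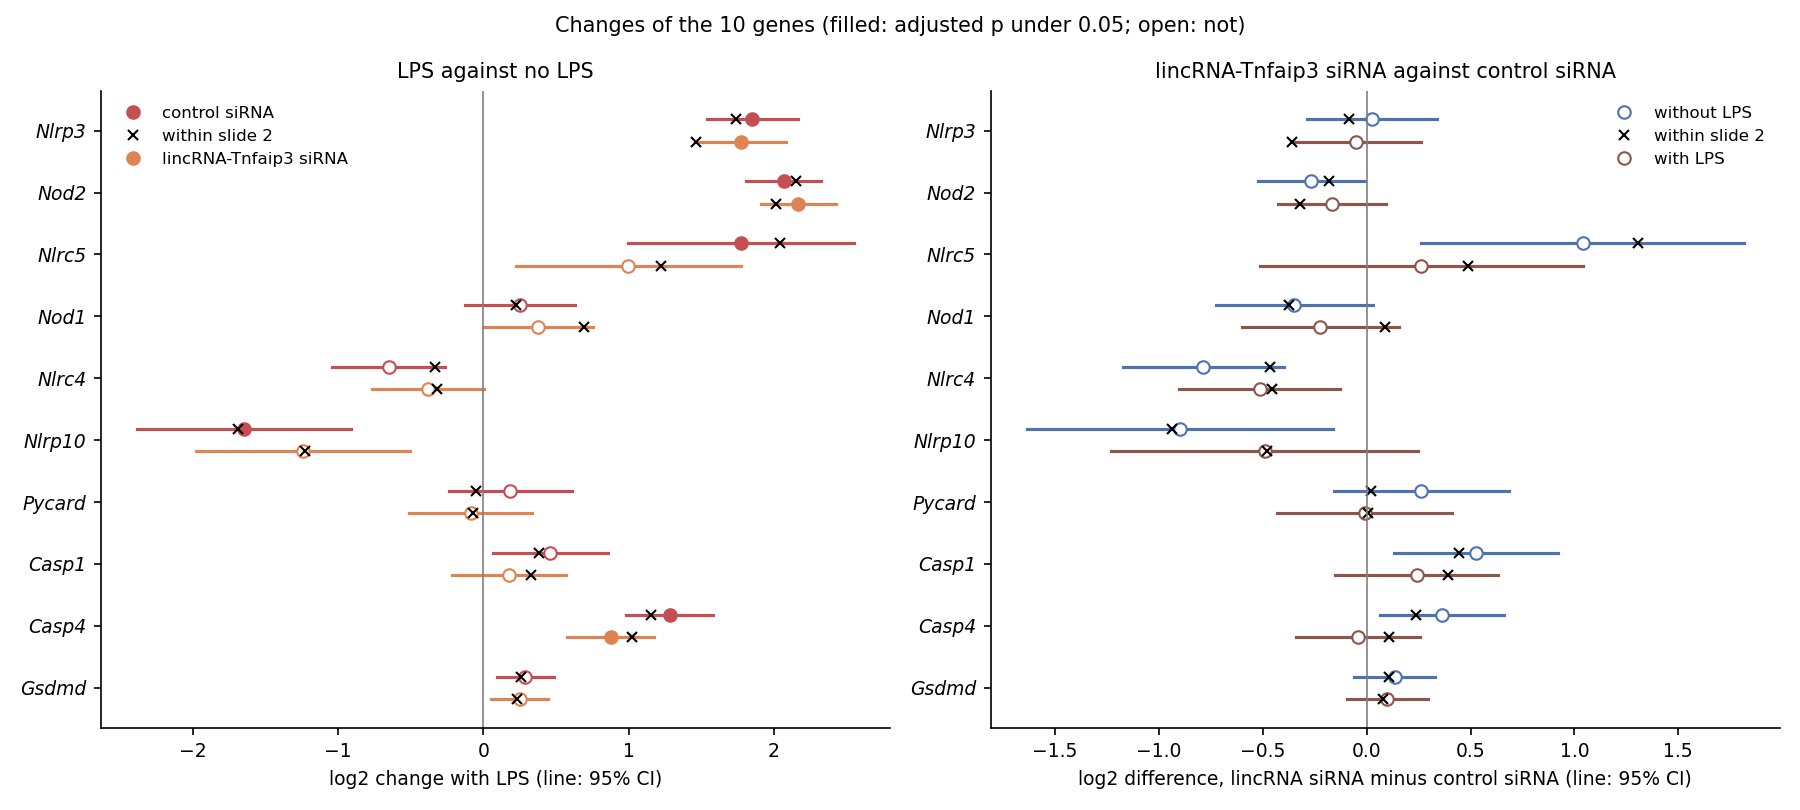
Log2 change with LPS (left panel) and log2 difference between the siRNAs (right panel) for each gene (y axis), as points with lines for the 95% confidence interval of the limma fit; filled points passed an adjusted p of 0.05, open points did not, and crosses are the estimates from slide 2 alone, which holds a single control-siRNA array and a single array of the lincRNA siRNA with LPS. Nlrp3 and Nod2 lie at 1.77 to 2.17 with LPS under both siRNAs, and no point of the right panel is filled.

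The second comparison asked whether the siRNA against lincRNA-Tnfaip3 changed these genes. By limma, 0 of the 10 members passed without LPS, with LPS or averaged, and 0 passed for the difference between the LPS responses, where the share of all features that passed was 0%, 0%, 0.151% and 0%. At an unadjusted p under 0.05 the members numbered 6 without LPS, 1 with LPS, 6 averaged and 0 for the difference between responses, against 18.5%, 4.62%, 17.3% and 3.74% of all features.

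Without LPS the siRNA groups did not overlap for 6 members, against 21.4% of all features. Nlrc5, Casp1, Casp4 and Gsdmd were higher and Nlrc4 and Nod2 lower on the lincRNA-siRNA arrays. For Gsdmd the groups only just cleared each other. Its highest control-siRNA array read 2.9551 and its lowest lincRNA-siRNA array 2.9557. The Nlrc5 difference was 1.04 (95% CI 0.26 to 1.82, adjusted p = 0.221), Casp1 0.53 (95% CI 0.13 to 0.92, adjusted p = 0.221), Casp4 0.36 (95% CI 0.066 to 0.66, adjusted p = 0.227) and Gsdmd 0.14 (95% CI -0.059 to 0.33, adjusted p = 0.404). For Nlrc4 it was -0.79 (95% CI -1.17 to -0.40, adjusted p = 0.195), for Nod2 -0.27 (95% CI -0.52 to -0.0079, adjusted p = 0.263) and for Nlrp10 -0.90 (95% CI -1.64 to -0.16, adjusted p = 0.227). Of the control-siRNA arrays, only array 3 shared a slide with the lincRNA-siRNA arrays, and within slide 2 the Nlrc4 difference was -0.47 and the Nlrc5 difference 1.31. The second Nlrc5 probe differed by 0.29 (95% CI -0.12 to 0.70).

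With LPS 3 members did not overlap between the siRNAs, against 11.4% of all features: Nlrc4 and Nlrp10 were lower and Gsdmd higher with the lincRNA siRNA. Gsdmd again separated by a small gap, from 3.2853 (highest, control siRNA) to 3.2892 (lowest, lincRNA siRNA). The Nlrc4 difference was -0.52 (95% CI -0.90 to -0.13, adjusted p = 0.976). Nlrp3 differed by -0.052 (95% CI -0.37 to 0.26), Nod2 by -0.17 (95% CI -0.43 to 0.091) and Casp4 by -0.040 (95% CI -0.34 to 0.26). For Nlrp3 the interval allows a ratio of 0.776 to 1.20 between the siRNAs.

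Nlrc4 had the lowest p of the members in the average over LPS states, at -0.65 (95% CI -0.93 to -0.38, adjusted p = 0.0888), and was lower with the lincRNA siRNA in both states. The Nlrc4 average passed without control-siRNA array 3 (-0.73, adjusted p = 0.00967), where 1616 of all features passed, and without array 1 of the lincRNA siRNA (-0.72, adjusted p = 0.0374). Without control-siRNA array 3 Nlrc4 also passed before LPS (-0.95, adjusted p = 0.0101), where 2613 of all features passed. Without that array, slide 1 and the control siRNA without LPS cannot be told apart. Without array 1 of the lincRNA siRNA Nlrp10 passed before LPS (-1.33, adjusted p = 0.0361) and on average (-0.91, adjusted p = 0.0295), while 133 and 213 of all features passed.

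**Figure D3:**
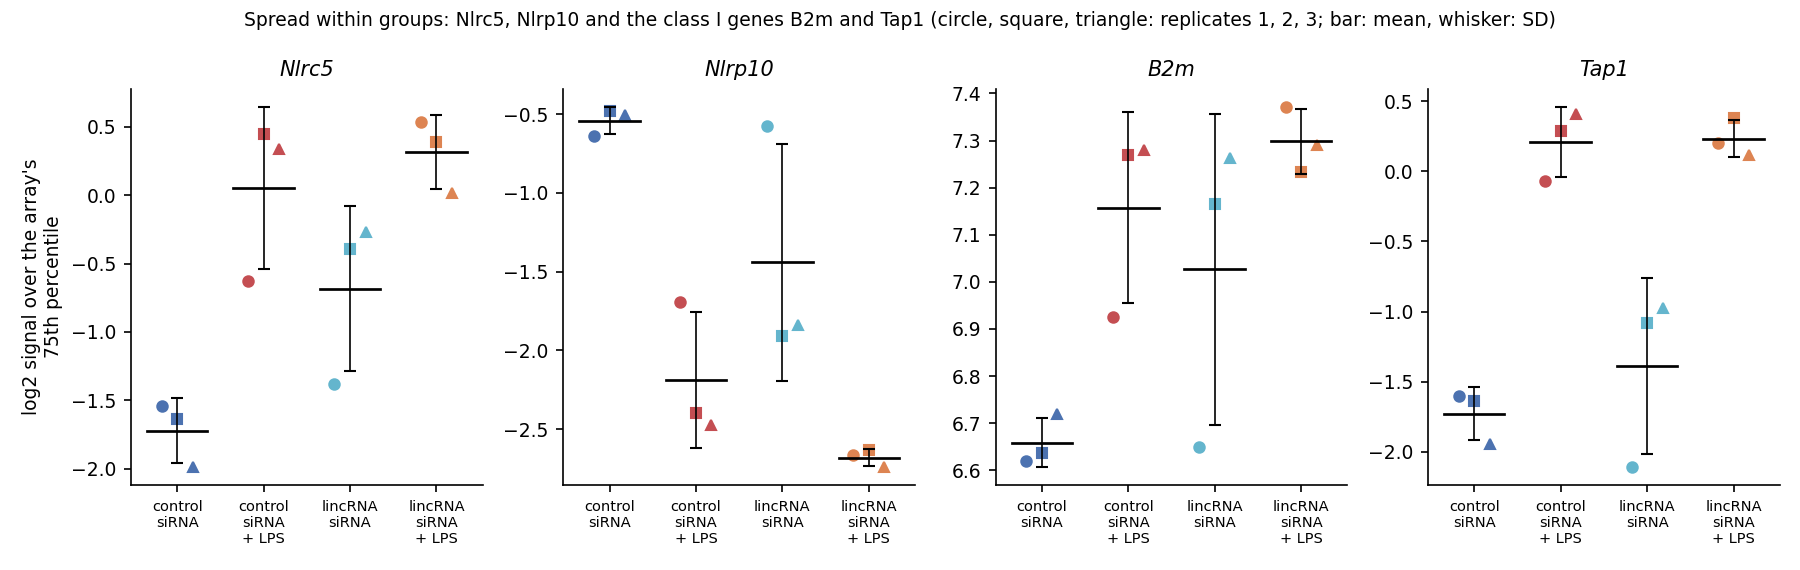
Log2 signal relative to the 75th percentile of each array (y axis) for Nlrc5, Nlrp10, B2m and Tap1 by group (x axis), with replicates 1, 2 and 3 as circle, square and triangle, the mean as a bar and the SD as whiskers; each panel has its own y range. In the lincRNA-siRNA group array 1 lies near the control-siRNA arrays, whereas arrays 2 and 3 lie toward the LPS groups.

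The spread within the lincRNA-siRNA group was uneven, and several genes, though not all, split the same way there. Array 1 read -1.38 for Nlrc5 and -0.57 for Nlrp10, close to the control-siRNA arrays, whereas arrays 2 and 3 read -0.40 and -0.27 for Nlrc5 and -1.91 and -1.84 for Nlrp10. B2m, the gene of the light chain of MHC class I, was picked out after its values had been seen. It read 6.62, 6.64 and 6.72 in control-siRNA cells, 6.92, 7.27 and 7.28 after LPS, 6.65, 7.17 and 7.26 in lincRNA-siRNA cells, and 7.37, 7.23 and 7.29 after LPS. Tap1, a subunit of the peptide transporter, read -2.11, -1.09 and -0.98 in lincRNA-siRNA cells, against -1.95 to -1.60 in control-siRNA cells. For B2m and Nlrc5 array 1 of the control siRNA with LPS likewise lay below arrays 2 and 3. The 75th percentile of the signal was 398, 471 and 337 on lincRNA-siRNA arrays 1, 2 and 3, and 33310, 34780 and 32701 probes were well above background. All 3 lay on slide 2, and the part of these measures in the split was not tested. The second Nlrc5 probe read -1.99, -1.79 and -2.05 on these arrays and did not show the split. Nor did Nlrp3 (-0.77, -0.87 and -0.91), Casp4 (3.23, 3.29 and 3.45) or Pycard (-0.61, -0.70 and -0.45). Gsdmd (2.96, 3.13 and 3.09) and Nlrc4 (-1.45, -1.81 and -1.87) also had array 1 apart from arrays 2 and 3. Casp1 (3.60, 3.87 and 4.03) had array 1 lowest, as it did in the control siRNA with LPS (3.53, 3.95 and 3.83). For Nod1 (-2.53, -3.00 and -2.77) array 3 lay between the others, and for Nod2 (-1.61, -1.47 and -1.34) array 2 did.

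**Figure D4:**
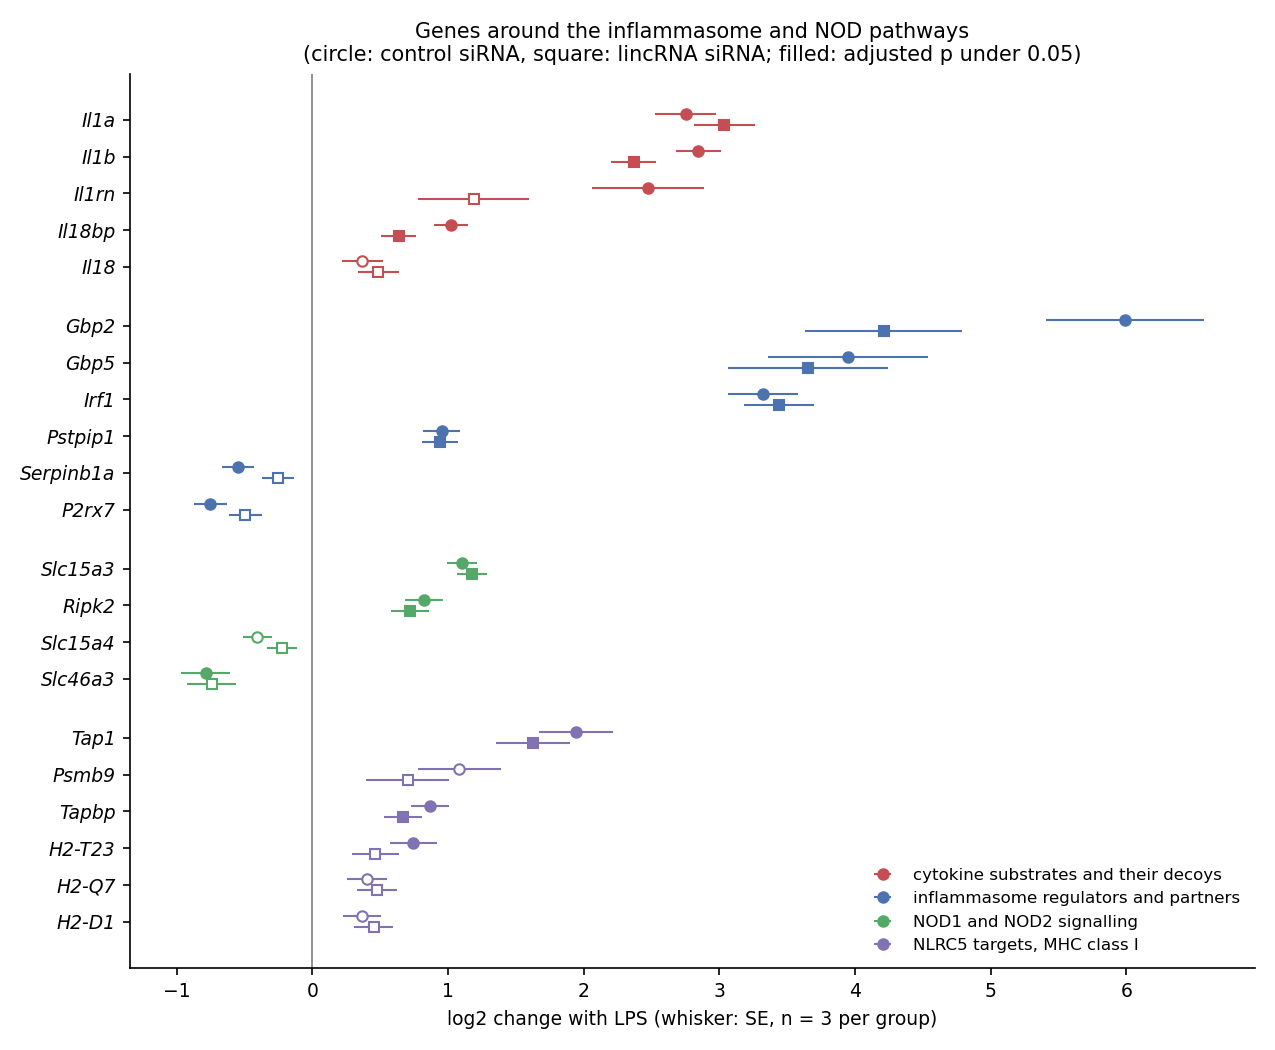
Log2 change with LPS (x axis) of genes from 4 lists around the inflammasome and NOD pathways, in control-siRNA cells (circles) and lincRNA-siRNA cells (squares), with the SE as whiskers; filled symbols passed an adjusted p of 0.05. Il1b lies at 2.85 and 2.37, Irf1 at 3.32 and 3.44, and P2rx7 at -0.75 and -0.49.

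The genes around the members were described by pathway lists. With LPS 3.26% of all features rose and 1.88% fell in control-siRNA cells. In lincRNA-siRNA cells these shares were 1.5% and 0.339%, and on average 4.2% and 4%. Of the cytokines that caspase-1 or related proteases release and their antagonists, 5 of 6 were tested (Il1r2 did not pass the filter). Il1a, Il1b, Il1rn and Il18bp rose in control-siRNA cells, Il1a, Il1b and Il18bp in lincRNA-siRNA cells, and all 5 on average. Il1b, the main substrate, read 1.77, 1.61 and 1.62 in control-siRNA cells and 4.86, 4.31 and 4.37 after LPS, and in lincRNA-siRNA cells 1.58, 1.57 and 1.60 and then 4.22, 3.91 and 3.72. All 6 Il1b arrays with LPS lay well above the other 6, and the rise was 2.85 ± 0.17 (adjusted p = 2.00e-05) and 2.37 ± 0.17 (adjusted p = 8.80e-05). Il1a rose by 2.75 and 3.04. Il18, whose product is the second substrate, differed by 0.37 (adjusted p = 0.176) and 0.49 (adjusted p = 0.22), and rose on average by 0.43 (adjusted p = 0.0362). Il1rn, the gene of the IL-1 receptor antagonist, rose by 2.47 in control-siRNA cells (adjusted p = 0.00767), where it was well above background on 1 of 3 arrays without LPS. Il18bp, which encodes the soluble IL-18 antagonist, rose by 1.02 and 0.64.

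Among regulators and partners of the inflammasome, 18 of 20 were tested, of which 4 rose under each siRNA and 2 fell under the control siRNA. Gbp2 and Gbp5 encode guanylate-binding proteins that act on bacteria and vacuoles upstream of inflammasomes, and Irf1 a transcription factor that induces them. Gbp2 rose by 5.99 and 4.21 (well above background on 2 of 3 control-siRNA arrays), Gbp5 by 3.95 and 3.65, and Irf1 by 3.32 and 3.44 under the control and the lincRNA siRNA. Pstpip1, a partner of pyrin, rose by 0.95 and 0.94. P2rx7, the ATP-gated channel that triggers NLRP3, fell by 0.75 (adjusted p = 0.00664) in control-siRNA cells with a value of -0.49 (adjusted p = 0.0927) in lincRNA-siRNA cells. Serpinb1a, an inhibitor of inflammatory proteases, fell by 0.55 (adjusted p = 0.0271) with a value of -0.25 (adjusted p = 0.516) under the lincRNA siRNA. The median of the list was 0.018 and 0.11, against 0.058 and -0.0092 over all features.

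The NOD1 and NOD2 signalling list had 21 of 22 genes tested. Ripk2, the kinase both receptors use, rose by 0.83 ± 0.14 (adjusted p = 0.0093) and 0.72 ± 0.14 (adjusted p = 0.0332). Slc15a3, an endolysosomal transporter of peptides such as muramyl dipeptide, rose by 1.1 and 1.18. Slc46a3, a lysosomal transporter, fell by 0.79 (adjusted p = 0.0369) in control-siRNA cells, and Slc15a4, a relative of Slc15a3, fell on average by 0.31 (adjusted p = 0.0353). The median of this list was -0.034 and -0.041. Under the control siRNA 2 rose and 1 fell, under the lincRNA siRNA 2 rose, and the others did not pass.

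Of 12 MHC class I pathway genes that NLRC5 can activate, 3 rose in control-siRNA cells, 2 in lincRNA-siRNA cells and 6 on average. Over all features 3.26%, 1.5% and 4.2% rose. The list median was 0.56 and 0.47, against 0.058 and -0.0092 over all features. Tap1 rose by 1.94 and 1.63 and Tapbp, a peptide-loading chaperone, by 0.87 and 0.67 under both siRNAs. H2-T23, a non-classical class I gene, rose by 0.74 (adjusted p = 0.0388) in control-siRNA cells. The immunoproteasome gene Psmb9 and the class I genes H2-D1 and H2-Q7 passed only in the average, at 0.89, 0.41 and 0.44. Genes of this family share long stretches of sequence, so signal from related transcripts cannot be told apart here.

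Other NOD-like receptor genes were tested for 19 of 27 on the list, and 0 passed in any contrast by limma. The median change was -0.057 and -0.032, and Naip1, Naip2, Naip5 and Naip6, sensors upstream of NLRC4, were well above background on all arrays with changes of -0.24 to 0.29. These genes, Aim2 and Mefv were named after their values had been seen. Aim2 and Mefv, inflammasome sensors outside the family, had LPS differences of 0.086 and 0.26 in control-siRNA cells and of 0.24 and 0.11 in lincRNA-siRNA cells, and neither passed. The list of pyroptosis and membrane rupture genes had 9 of 9 tested, and 0 passed in any contrast. Its median LPS change was 0.20 in control-siRNA cells and -0.16 in lincRNA-siRNA cells. No gene of these lists passed in a contrast between siRNAs. With the slide as a block, the named genes that passed in control-siRNA cells were Il1a, Il1b, Gbp2, Irf1, Ripk2 and Slc15a3, and in lincRNA-siRNA cells Il1a, Il1b, Irf1 and Slc15a3. For the blocked average, 4 of 5 cytokine and antagonist genes passed and 4 of 18 regulators. Of the NOD1 and NOD2 signalling genes 2 of 21 passed there, and of the class I genes 1 of 12.

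Genes with the most similar profile over the 12 arrays are given as a description, since the arrays share the LPS groups. For Nlrp3 they were Pdgfb (Pearson r = 0.995), Tnf (0.993) and Kdm6b (0.986). For Nod2 they were Nupr1 (0.991), Csf1 (0.989) and Edn1 (0.989), and for Casp4 LOC664787 (0.985), Adamts4 (0.984) and Tnfsf15 (0.982). The closest to Nlrc5 were Fabp4 (0.985), Areg (0.976) and Msr1 (0.976), those to Nlrp10 were Sla (0.986), Oit3 (0.981) and Tctn2 (0.980), those to Nlrc4 were Arpp19 (0.972), Atrx (0.969) and Ttc30b (0.968), and those to Gsdmd were Prkg2 (0.983), Il13ra2 (0.983) and Bcl6b (0.978).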

How the data were processed

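Per the file headers, the deposited intensity values are the processed signals of 1-colour arrays from Agilent Feature Extraction 10.7.1.1, background-subtracted and detrended within each array, with probe positions on mm9. The authors also deposited log2 values, with a median of 4.75 on every array; the sources used here name no normalization for them. They entered as an alternative only. Outlier spots (104 to 258 per array) were left out; 0 spots were saturated. Spots of a probe were averaged and log2 values taken relative to the 75th percentile of each array. Probes well above background on all 3 arrays of a group were kept (33151, 59.5%, with 89 missing values), with the brightest probe per gene. Accessions of 26685 probes matched GRCm38.p6 gene names.

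The 12 arrays entered 1 linear model of the 4 group means (limma 3.58.1, R 4.3.3; figures with Python 3.11.15 and matplotlib 3.10.9), and p-values were adjusted over all features of a contrast. The fit was run on simulated data with independent noise and no slide effect. That run cannot speak to slide differences or to variation shared between features. Alternatives were normexp, quantile normalization, the authors' log2 values, other filters, the mean over probes, the slide or replicate number as a block, slide 2 alone, only the groups compared, and leaving out each array. The members and gene lists were chosen with earlier results of these data known. Named genes were all members, up to 6 genes per list with the largest average LPS change among those that passed an LPS contrast, and the 3 most correlated genes of each member that passed; exceptions are stated where they occur. With 3 arrays per group, the number of arrays limits the precision.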

Additional observations from a re-analysis of the deposited data

How the results depend on the processing

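The number of members that passed with LPS was 5 in control-siRNA cells, and became 3 with the slide as a block, 2 within slide 2, and 3 to 6 when single arrays were left out. The average over both siRNAs gave 7, which became 3 with the slide as a block, 3 within slide 2, 5 without a filter on dim probes (Nlrc4, adjusted p = 0.068, and Gsdmd, adjusted p = 0.094, lost), 6 with normexp (Nlrc4 at -0.34, adjusted p = 0.0534) and 5 to 7 when single arrays were left out. The 0 members without LPS between siRNAs became 0 to 1 when single arrays were left out, and the 0 on average became 1 (Nlrc4) with only probes above background on all 12 arrays and 0 to 2 when single arrays were left out. In lincRNA-siRNA cells the count was 3, and became 2 (without Casp4) with the slide as a block, within slide 2 or with only the compared groups fitted. Replicate numbers did not pair the samples: deviations of same-numbered arrays correlated at -0.30 to 0.47, 8 of 18 over 0.1, and 5 of 12 arrays correlated best with their own number. With the replicate number as a block the LPS counts were 6, 3 and 7. Over 70 changes of the members and 1510 alternative values, 1457 stayed on their side of the threshold, 44 no longer passed and 9 newly passed. Among values that never passed, 36 changed sign. Most of the 1510 values belong to changes that did not pass in the main fit. For the 15 changes that passed there, 279 of 323 alternative values still passed and 44 did not. The cause was not tested. The Casp4 call in lincRNA-siRNA cells (adjusted p = 0.127) and the Nlrc5 call in control-siRNA cells (adjusted p = 0.0588) were lost when only the compared groups were fitted. Over all features the LPS calls in control-siRNA cells numbered 1228, 714 without a filter, 631 with only the groups compared, 230 with the slide as a block, 42 within slide 2 and 534 to 3978 with single arrays left out; in lincRNA-siRNA cells 440, 298, 139, 158, 45 and 244 to 469; on average 1962, 1245 without a filter, 525, 272 and 1209 to 3672. The fit with only the groups compared gives no value for averages. Slide 1 is told apart from the control siRNA by 1 control-siRNA array only.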
